A study of Mus musculus with 22 samples.

Results

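Iron handling in these libraries was followed through 10 genes, chosen as a fixed list of names with no measured value in the rule, out of 31053 gene entries. They were the ferritin subunits Fth1 and Ftl1, the haem-degrading enzyme Hmox1, the haemoglobin scavenger receptor Cd163, the iron exporter Slc40a1, the uptake and transport proteins Tfrc and Slc11a1, and the secreted carriers Trf, Hpx and Lcn2. All 10 were found in the files by symbol. The data were 22 single-cell libraries made by droplet capture. Barcodes mark droplets, and each captured transcript is counted once through its molecular identifier (UMI). All mice carried a tamoxifen-inducible Cre recombinase driven by Prom1 and a ZsGreen lineage tag at Rosa26 (Prom1-CreERT2;Rosa26ZSG), and were labelled by their genotype at Nalcn, the sodium leak channel gene with a conditional allele, as wt (wild type), het (heterozygous) or null. The allele could be lost only in cells in which that Cre had acted and in their progeny. Circulating ZsGreen-positive cells sorted from mice without tumours (ntCZC) gave 10 libraries, 2 wt, 4 het and 4 null. Kidney, liver, lung, stomach and the male or female reproductive organ, marked with hashtag antibodies and pooled, gave 9 tissue libraries, 5 wt, 2 het and 2 null. The mice of these 19 libraries were 551 to 654 days old and of both sexes. Peripheral blood mononuclear cells (PBMC) of a male wt mouse of 120 days gave 1 library. Another 2 tissue libraries, whose labels named different genotypes, entered no comparison. Animals are not named in the labels, so n is a number of libraries and p-values measure the spread between libraries, which may be technical.

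Cells need iron for haem and for iron-sulphur enzymes, but free iron is toxic, so it is carried by transferrin, taken up by the transferrin receptor, stored in ferritin and exported by ferroportin. Macrophages of liver and spleen take up old red cells and haemoglobin, open the haem ring with haem oxygenase and return the iron to plasma. In low iron, iron regulatory proteins bind hairpins called iron-responsive elements, which blocks translation of ferritin and ferroportin RNA and stabilises transferrin receptor RNA.

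The hairpin letters are shown because they set apart the members whose RNA is under this control. The untranslated regions (UTRs) of every gene in the GENCODE vM21 annotation of GRCm38, the build of the files, were searched on the sense strand for a C, 5 bases, the loop letters CAGTG followed by A, C or T, and 5 bases that pair back with the earlier 5, G with T allowed. In each line the 6 loop letters are in capitals and the whole match is 17 bases long.
Fth1, 5' UTR, chr19:9982738-9982754, plus strand: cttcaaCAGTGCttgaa
Ftl1, 5' UTR, chr7:45459785-45459801, minus strand: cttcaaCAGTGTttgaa
Slc40a1, 5' UTR, chr1:45925471-45925487, minus strand: cagctaCAGTGTtagct
Tfrc, 3' UTR, chr16:32631225-32631241, plus strand: cggaagCAGTGCcttcc
Tfrc, 3' UTR, chr16:32631604-32631620, plus strand: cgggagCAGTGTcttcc
Tfrc, 3' UTR, chr16:32631669-32631685, plus strand: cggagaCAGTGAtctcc
Tfrc, 3' UTR, chr16:32631716-32631732, plus strand: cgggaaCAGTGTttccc
Of the 10 members, 3 had a match in the 5' UTR and 1 in the 3' UTR, against 23 of 20898 genes (0.110%) and 100 of 21021 genes (0.476%) with such a region. The Fth1 and Ftl1 stems were the same letters and differed in the last loop base. A match is a description of letters, and the RNA counts below say nothing of translation.

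ntCZC libraries held 50 to 621 barcodes and 161541 to 2600526 UMIs, tissue libraries 1856 to 27857 barcodes and 8571019 to 139793927 UMIs, and the PBMC library 752 barcodes and 1422144 UMIs. Nalcn had no UMI in ntCZC or PBMC and 74 UMIs in the 9 tissue libraries, 0.166 ± 0.118 counts per 1000000 UMIs (CPM; SD, n = 9), so its counts could not check the genotype labels. Tissue null replicate 3 went against its labels: labelled female, it had 1347 CPM of Xist, but also 31.2 CPM of Y-linked genes and 532 cells with epididymal markers. Called differences of the 10 genes that rest on it are given with and without it. Pairs of tissue libraries shared up to 226 barcodes (0.860% of the smaller library) and pairs with an ntCZC library up to 8, and the largest share of the smaller library over all 231 pairs was 2.60%. Cells were gated into classes by marker genes that held none of the 10 members, and a class name followed by "-like" refers to this gate alone. Of 2103 ntCZC cells passing the filters, 924 were nonclassical monocyte-like, 257 B cell-like, 165 classical monocyte-like, 125 T cell-like and 113 neutrophil-like, 379 were taken by no gate, and none of the gates for kidney, gastric, reproductive or lung epithelium held an ntCZC cell.

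Counts summed over all barcodes of a library asked how sorted circulating cells differed from solid organs. Slc11a1 and Trf were higher in ntCZC, and Fth1, Slc40a1, Tfrc and Lcn2 were lower, by the edgeR quasi-likelihood test at an adjusted p of 0.05. Of the 8 members with enough counts to be tested, 6 passed, 2 higher and 4 lower. Of all 10681 genes tested, 64.5% passed, 28.5% higher and 36.0% lower, so the members passed about as often as other genes. The median log2 change was -0.68 over the tested members and -0.08 over all genes, and with the RLE scaling in place of TMM the latter was -0.30 and the split moved from 3042 higher and 3849 lower genes to 2202 and 4736. No member separated the 10 ntCZC from the 9 tissue libraries, against 15.1% of the genes tested. In such sums fewer cells of a type and less RNA per cell cannot be told apart. Genotype was not a term in this fit, and wt made up 2 of the 10 ntCZC and 5 of the 9 tissue libraries. Haemoglobin took 3331 to 735423 CPM in ntCZC (median 61012) and 3425 to 31936 CPM in tissue (median 9048), and the part of this in the members' CPM was not tested.

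**Figure D1:**
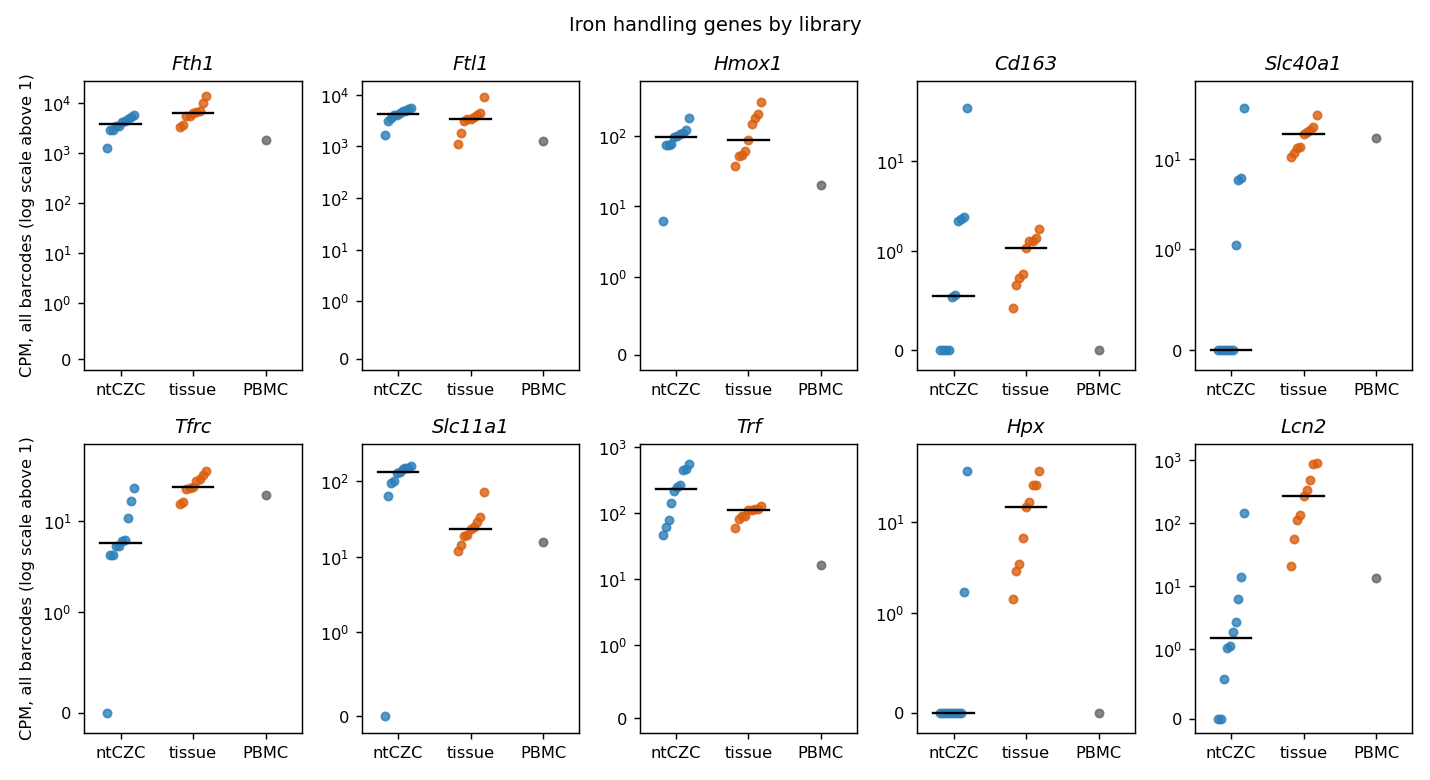
CPM over all barcodes (vertical axis, linear below 1 and logarithmic above) of the 10 genes in 10 ntCZC, 9 tissue and 1 PBMC libraries, each point a library and each black line the median. Slc11a1 lay above every tissue library in 8 of 10 ntCZC libraries, while Lcn2 and Slc40a1 lay below every tissue library in 9 of 10.

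Ferritin stores iron as a mineral inside a shell of heavy chains, which oxidise the iron, and light chains, which hold the core. Fth1, the heavy chain, had 1226, 3756 and 5699 CPM in the lowest, median and highest ntCZC library and 3280, 6323 and 13402 CPM in tissue. The ranges overlapped, with 3 ntCZC libraries below all tissue libraries. ntCZC differed by -0.81 ± 0.26 on the log2 scale (SE, edgeR adjusted p = 0.00945), and -0.88 without tissue null replicate 3. Ftl1, the light chain, had 1678, 4240 and 5444 CPM in ntCZC and 1122, 3437 and 9188 CPM in tissue, a log2 difference of 0.24 ± 0.24 (SE, edgeR adjusted p = 0.395). It was 0.06 without tissue wt replicate 5 and, without tissue wt replicate 2, 0.45, which passed. The 3' ends of Ftl1 and of its near-identical copy Ftl1-ps1 may share reads, and Ftl1-ps1 had a mean of 13.8 CPM in ntCZC and 30.6 CPM in tissue. The PBMC library had 1826 CPM of Fth1 and 1261 CPM of Ftl1.

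Haem oxygenase 1, made by Hmox1, frees iron from haem. Its level was 6.19, 99.4 and 180 CPM in the lowest, median and highest ntCZC library and 37.4, 88.0 and 307 CPM in tissue. The lowest ntCZC value was that of wt replicate 3, whose haemoglobin share was the highest, and the other 9 ntCZC libraries lay within the tissue range. The log2 difference of -0.54 ± 0.40 (SE) did not pass (edgeR adjusted p = 0.239) and was -0.03 without tissue wt replicate 5. It passed, again lower in ntCZC, when barcodes with few genes or more than 20% mitochondrial UMIs were left out. With libraries of the same genotype and number as a block, the log2 difference had the other sign (0.26). Mean Hmox1 in ntCZC and tissue was 54.1 and 180 CPM in wt, 92.8 and 57.8 CPM in het and 119 and 62.7 CPM in null. Cd163, which takes up haemoglobin bound to haptoglobin, was near the limit of detection, with 0 to 38.9 CPM (median 0.544) in ntCZC and 0.425 to 1.75 CPM (median 1.06) in tissue, and was not tested after the filter on low counts. Its ntCZC reads were 51 UMIs in all, of which 39 of the 50 in passing cells lay in cells that no gate took.

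Slc40a1 encodes ferroportin, the cellular iron exporter. It had no UMI in 6 of 10 ntCZC libraries, 1.11 to 6.19 CPM in another 3 and 36.1 CPM in ntCZC wt replicate 1, against 10.6, 19.0 and 30.2 CPM in the lowest, median and highest tissue library. The log2 difference was -2.09 ± 0.68 (SE, edgeR adjusted p = 0.0109), -2.05 without tissue null replicate 3 and -5.41 without ntCZC wt replicate 1. The source of that library's counts could be seen in its cells: neutrophil-like cells held 64 of the 73 Slc40a1 UMIs of all passing ntCZC cells (87.7%), and 62 of these came from the 103 neutrophil-like cells of ntCZC wt replicate 1, at 358 CPM (exact 95% Poisson interval 274 to 458). In the PBMC library, 36 neutrophil-like cells had 746 CPM (478 to 1110), its B cell-like cells had 0 of 363132 UMIs, and its 16 nonclassical monocyte-like cells had none. Such intervals, like the exact binomial ones below, cover counting error only.

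Tfrc, the transferrin receptor, and Slc11a1, the transporter that moves divalent metals out of the phagosome of macrophages and neutrophils, went opposite ways. Tfrc had 0, 5.76 and 23.4 CPM in the lowest, median and highest ntCZC library and 15.7, 23.8 and 35.8 CPM in tissue. In 8 of 10 ntCZC libraries it was below every tissue library, and the exceptions were het replicates 1 (16.8 CPM) and 3 (23.4 CPM). On the log2 scale the difference was -1.72 ± 0.34 (SE, edgeR adjusted p = 1.75e-04), and -1.87 without tissue null replicate 3. Slc11a1 had 0, 130 and 156 CPM in ntCZC and 11.7, 23.1 and 71.4 CPM in tissue, and 15.5 CPM in PBMC. It was above every tissue library in 8 ntCZC libraries, within their range in het replicate 3 (64.4 CPM) and at 0 in wt replicate 3, where 3 counts would have been 18.6 CPM. The log2 difference was 1.99 ± 0.33 (SE, edgeR adjusted p = 2.40e-05), and 1.81 to 2.25 when each library was left out in turn (1.88 without tissue null replicate 3). A Slc11a1 UMI was seen in 33.0% ± 14.1 of ntCZC barcodes (SD, n = 10), 6.67% ± 5.94 of tissue barcodes (SD, n = 9) and 2.53% of PBMC barcodes. Nonclassical monocyte-like cells held 57.4% of the Slc11a1 UMIs of passing ntCZC cells.

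The secreted carriers are made mainly by hepatocytes (transferrin, from Trf, which carries iron, and haemopexin, from Hpx, which carries haem) or by neutrophils and epithelia (lipocalin 2, from Lcn2, which binds bacterial iron chelators). Trf had 46.5, 233 and 569 CPM in the lowest, median and highest ntCZC library and 60.5, 112 and 128 CPM in tissue. In 7 ntCZC libraries it exceeded every tissue library, and in 1 it was below all of them. The ntCZC wt libraries were not among the 7, with 61.9 and 79.1 CPM. Mean Trf in ntCZC and tissue was 70.5 and 92.7 CPM in wt, 306 and 101 CPM in het and 300 and 123 CPM in null. On the log2 scale it differed by 1.17 ± 0.38 (SE, edgeR adjusted p = 0.0110), and by 1.09 without tissue null replicate 3. With libraries of the same genotype and number as a block, Trf did not pass (0.79, edgeR adjusted p = 0.0602). Peritoneal macrophage-like cells held 1299 of the 3058 Trf UMIs of passing ntCZC cells (42.5%), although only 62 cells were so gated. Their Trf level was 1608 CPM in null replicate 1 (28 cells) and 2028 CPM in het replicate 3 (19 cells), which held most of them.

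Hpx was read in only 2 ntCZC libraries, at 37.1 CPM in wt replicate 3 and 1.71 CPM in het replicate 3, and 2 of its 9 UMIs lay in passing cells. In wt replicate 3 the 6 hepatocyte markers summed to 303 CPM (4 markers, 49 UMIs) and in het replicate 3 to 11.4 CPM (3 markers, 20 UMIs), against 0 to 3.90 CPM in the other 8 ntCZC libraries, and their part in the Hpx reads was not tested. In tissue it had 1.42, 14.7 and 37.2 CPM. Lcn2 had 0, 1.5 and 145 CPM in ntCZC and 20.5, 269 and 901 CPM in tissue. The log2 difference was -4.54 ± 0.95 (SE, edgeR adjusted p = 3.03e-04), -7.05 without ntCZC wt replicate 1 and -3.78 without tissue null replicate 3. Those libraries had the highest ntCZC value (145 CPM) and, with null replicate 2 (901 CPM), the highest tissue values (861 CPM). Neutrophil-like cells held 278 of the 303 Lcn2 UMIs of passing ntCZC cells (91.7%), while epididymal epithelial-like cells held 56.7% of those of passing tissue cells. The 6 epididymal markers had no UMI in the 10 ntCZC libraries and summed to 1.56 to 10959 CPM in tissue (median 1775), and their part in the Lcn2 difference was not tested.

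Nonclassical monocytes patrol the vessel wall and were the class with most ntCZC cells. Compared within this class, in 7 ntCZC and 7 tissue libraries with at least 20 such cells, Fth1, Hmox1, Slc11a1 and Trf were lower in ntCZC and Ftl1 did not pass. So 4 of 5 tested members passed, all lower, and 31.7% of all 3584 genes tested passed, 13.2% higher and 18.6% lower. With libraries of the same genotype and number as a block, 1 member passed, Fth1, and 369 genes did so. Trf and Slc11a1, higher in ntCZC over all barcodes, were not higher within this class, where the lower Slc11a1 rested on a call that most other settings lost. The median log2 difference was -0.94 over the tested members and 0.01 over all genes.

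**Figure D2:**
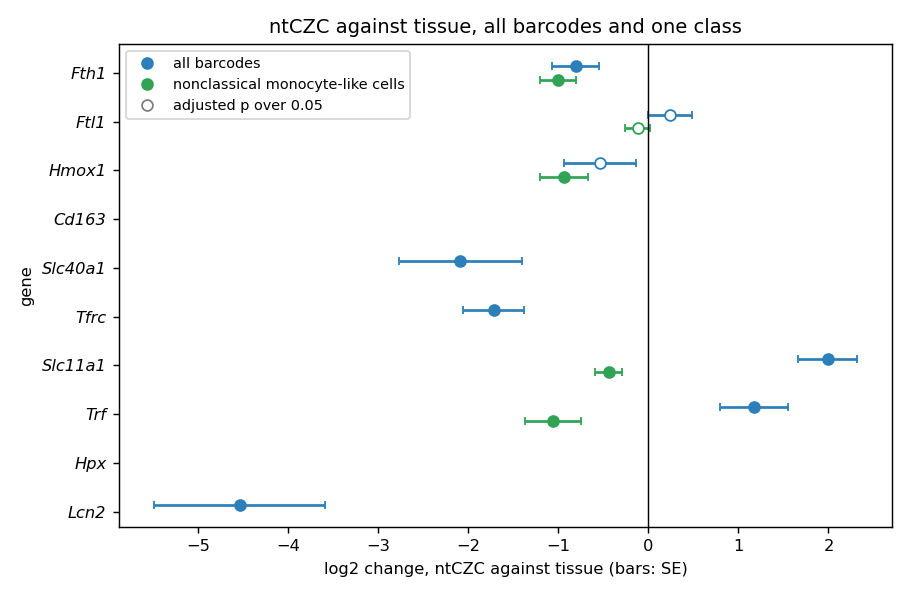
Log2 difference of ntCZC against tissue (horizontal axis, points with SE bars) for the tested members over all barcodes (blue, 10 and 9 libraries) and in nonclassical monocyte-like cells (green, 7 and 7 libraries), open points having an adjusted p over 0.05. Slc11a1 and Trf stood at 1.99 and 1.17 over all barcodes and at -0.44 and -1.06 within the class.

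In these cells Fth1 had 2557, 3126 and 5472 CPM in the lowest, median and highest ntCZC library and 4461, 5975 and 9458 CPM in tissue, a log2 difference of -1.01 ± 0.20 (SE, edgeR adjusted p = 5.30e-04). Hmox1 had 57.6, 143 and 239 CPM in ntCZC and 48.9, 262 and 342 CPM in tissue (-0.94 ± 0.27, SE, edgeR adjusted p = 0.0117). Trf had 23.5, 49.8 and 125 CPM in ntCZC and 59.5, 97.8 and 215 CPM in tissue (-1.06 ± 0.31, SE, edgeR adjusted p = 0.0112). For each of these genes the library ranges overlapped and the ntCZC median was the lower. Without tissue null replicate 3 the differences were -1.04 (Fth1), -1.05 (Hmox1) and -1.0 (Trf). The Trf call was lost at no more than 10% mitochondrial UMIs (-0.68, edgeR adjusted p = 0.235). The block by genotype and number lost the calls of Hmox1 (-1.11, edgeR adjusted p = 0.0731) and Trf (-0.89, edgeR adjusted p = 0.212). Slc11a1 had 190, 220 and 246 CPM in ntCZC, inside the 149, 248 and 335 CPM of tissue. Its log2 difference of -0.44 ± 0.15 (SE, edgeR adjusted p = 0.0288) no longer passed when any of 11 of the 14 libraries was left out, tissue null replicate 3 among them (-0.43, edgeR adjusted p = 0.0501). It was also lost without the filter on low counts, with either other marker gate and without doublet removal (-0.25 to -0.41). The block by genotype and number lost it too (-0.69, edgeR adjusted p = 0.0863). Ftl1 had medians of 5793 and 4731 CPM, and its log2 difference of -0.12 ± 0.14 (SE) did not pass (edgeR adjusted p = 0.544).

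Markers of several other classes were also lower in the monocyte gate of ntCZC than in that of tissue. None of 6 hepatocyte, 6 proximal tubule, 6 club and 6 epididymal markers had a UMI in ntCZC nonclassical monocyte-like cells. In tissue the summed lists reached 37.5 to 520, 155 to 648, 115 to 1393 and 0 to 868 CPM. Alveolar macrophage markers summed to 23.6 to 120 CPM in ntCZC and 105 to 357 CPM in tissue. The alveolar type 2 list went the other way, with 980 to 1233 CPM in ntCZC, all from 1 of its 6 markers, and 518 to 762 CPM in tissue. B cell-like cells, which should lack most of these members, had fewer such reads in ntCZC too: mean Trf was 0 CPM in 6 ntCZC libraries and 42.7 CPM in 8 tissue libraries, Hmox1 0.826 and 17.9 CPM, Lcn2 0 and 25.9 CPM, and Hpx 0 and 12.3 CPM. The part of these reads in the lower ntCZC values was not tested. Fth1 was at 3844 CPM in ntCZC and 4110 CPM in tissue B cell-like cells, with ranges of 2175 to 6009 and 1961 to 5582 CPM.

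Tissue classes were compared by summed counts of libraries with at least 20 cells of a class, which 24 classes reached in 3 or more libraries. Macrophage-like or neutrophil-like cells had the highest mean of 7 members, namely Fth1, Ftl1, Hmox1, Cd163, Slc40a1, Slc11a1 and Trf, while Tfrc was highest in alveolar type 2-like and Lcn2 in epididymal epithelial-like cells. Hpx had no class that stood apart. For most members the leading class overlapped the next in its range of libraries. The classes that stood apart from the next in order were liver sinusoidal endothelial-like cells for Slc40a1, classical monocyte-like cells for Slc11a1 and epididymal epithelial-like cells for Lcn2, and, at the low end for Hmox1, epididymal epithelial-like cells, which were above NK cell-like cells.

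**Figure D3:**
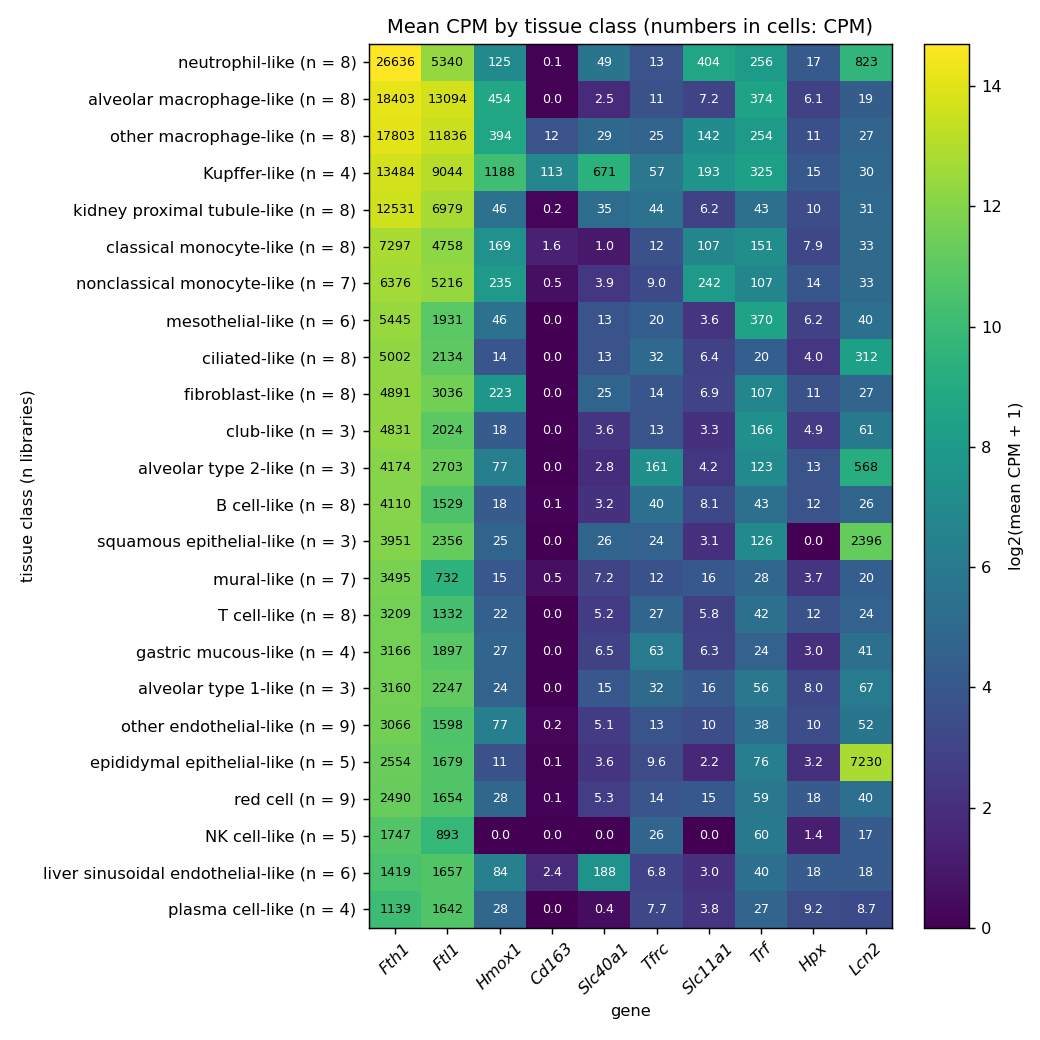
Mean CPM of the 10 genes (columns) in the 24 tissue classes (rows, with the number of libraries), written in each cell and coloured as log2(mean CPM + 1). The ferritin columns are high throughout, with 26636 CPM of Fth1 in neutrophil-like cells at the top, whereas Cd163 and Slc40a1 reach their highest means, 113 and 671 CPM, in Kupffer-like cells.

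Fth1 was highest in neutrophil-like cells, with 26636 CPM (range 12960 to 48250, n = 8), then alveolar macrophage-like (18403 CPM), other macrophage-like (17803 CPM), Kupffer-like (13484 CPM) and proximal tubule-like cells (12531 CPM). Liver sinusoidal endothelial-like (1419 CPM) and plasma cell-like cells (1139 CPM) had the least. Neighbours in this order overlapped. Ftl1 was highest in alveolar macrophage-like cells, with 13094 CPM (11256 to 15457, n = 8), followed by other macrophage-like (11836 CPM) and Kupffer-like cells (9044 CPM). Neutrophil-like cells, first for Fth1, had 5340 CPM of Ftl1 (2724 to 12421).

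Neutrophil-like and nonclassical monocyte-like cells of the same 7 libraries were compared with the library as a block. Of 6 tested members 5 passed, 4 higher and 1 lower in neutrophil-like cells, where 61.9% of 2743 genes passed, 32.0% higher and 29.9% lower. Fth1 had 19310, 27120 and 48250 CPM in the lowest, median and highest library of neutrophil-like cells, above the 4461, 5975 and 9458 CPM of monocyte-like cells with no overlap (log2 2.57 ± 0.18, SE, edgeR adjusted p = 1.31e-10). Lcn2 likewise had 396, 637 and 2524 CPM against 0, 14.3 and 147 CPM (5.36 ± 0.35, SE, edgeR adjusted p = 4.76e-11). Slc11a1 (1.21 ± 0.17) and Trf (1.96 ± 0.24) were higher in 7 of 7 libraries, and Hmox1 was lower in 6 of 7 (-0.97 ± 0.34, SE, edgeR adjusted p = 0.0189). Without tissue null replicate 3 the differences were 2.5 (Fth1), 5.90 (Lcn2), 1.20 (Slc11a1), 1.96 (Trf) and -1.09 (Hmox1). The Hmox1 call was lost without tissue het replicate 1 (-0.70) or 2 (-0.81) and with the gate of 2 markers (-0.75), and its log2 difference was -1.54 without tissue wt replicate 3. Slc40a1 was left untested by the filter and was higher in 7 of 7 libraries, with 14.4, 51.0 and 102 CPM against 0, 0 and 14.9 CPM.

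Other macrophage-like cells, which leave out the Kupffer-like and alveolar gates, were set against nonclassical monocyte-like cells of the same 7 libraries. All 5 tested members passed, 4 higher and 1 lower, where 39.7% of 4847 genes passed, 21.9% higher and 17.8% lower. The median log2 difference was 1.07 over these members and 0.08 over all genes. Fth1 had 9937, 13740 and 29132 CPM in the macrophage gate (log2 1.46 ± 0.13, SE, edgeR adjusted p = 3.16e-08) and Ftl1 4337, 7131 and 23803 CPM (1.07 ± 0.16, SE, edgeR adjusted p = 2.04e-05), each above the monocyte value in 7 of 7 libraries. Trf was higher in 7 of 7 (1.37 ± 0.20) and Slc11a1 lower in 7 of 7 (-0.71 ± 0.18, SE, edgeR adjusted p = 0.00363). Hmox1 was higher in 5 of 7 (0.57 ± 0.20, SE, edgeR adjusted p = 0.0290), and this call was lost without tissue wt replicate 2 or 4, tissue het replicate 1 or 2, or tissue null replicate 3 (0.44 to 0.58), with either other marker gate and at no more than 10% mitochondrial UMIs (0.47 to 0.51). Without tissue null replicate 3 the others were 1.41 (Fth1), 1.06 (Ftl1), 1.33 (Trf) and -0.77 (Slc11a1).

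Alveolar macrophages live on the airway surface and clear surfactant. Against other macrophage-like cells of 8 libraries, 2 of 7 tested members passed, both lower, where 41.3% of 8244 genes passed, 19.3% higher and 21.9% lower. Slc11a1 had 4.06, 4.72 and 19.5 CPM in the lowest, median and highest library of alveolar macrophage-like cells and 72.7, 151 and 207 CPM in other macrophage-like cells, with no overlap. The log2 difference was -4.42 ± 0.24 (SE, edgeR adjusted p = 6.47e-09), lower in 8 of 8 libraries and -4.47 without tissue null replicate 3. After thinning every cell to 1000 UMIs, 0.988% of alveolar macrophage-like cells had a Slc11a1 UMI, no more than the 1.05% of B cell-like cells. Whether these reads were background was not tested. Tfrc had 6.70, 11.8 and 16.3 CPM against 7.25, 18 and 56.1 CPM and was lower in 6 of 8 (-1.14 ± 0.34, SE, edgeR adjusted p = 0.0159), a call lost without tissue het replicate 1 (-0.87, edgeR adjusted p = 0.0612). The Tfrc difference was -1.26 without tissue null replicate 3. The ferritins (Fth1 -0.05 ± 0.22, Ftl1 0.16 ± 0.25) and Hmox1 (-0.29 ± 0.49) did not pass. Trf had its highest class mean here, 374 CPM (292 to 494, n = 8), next to mesothelial-like (370 CPM, 256 to 454, n = 6) and Kupffer-like cells (325 CPM).

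**Figure D4:**
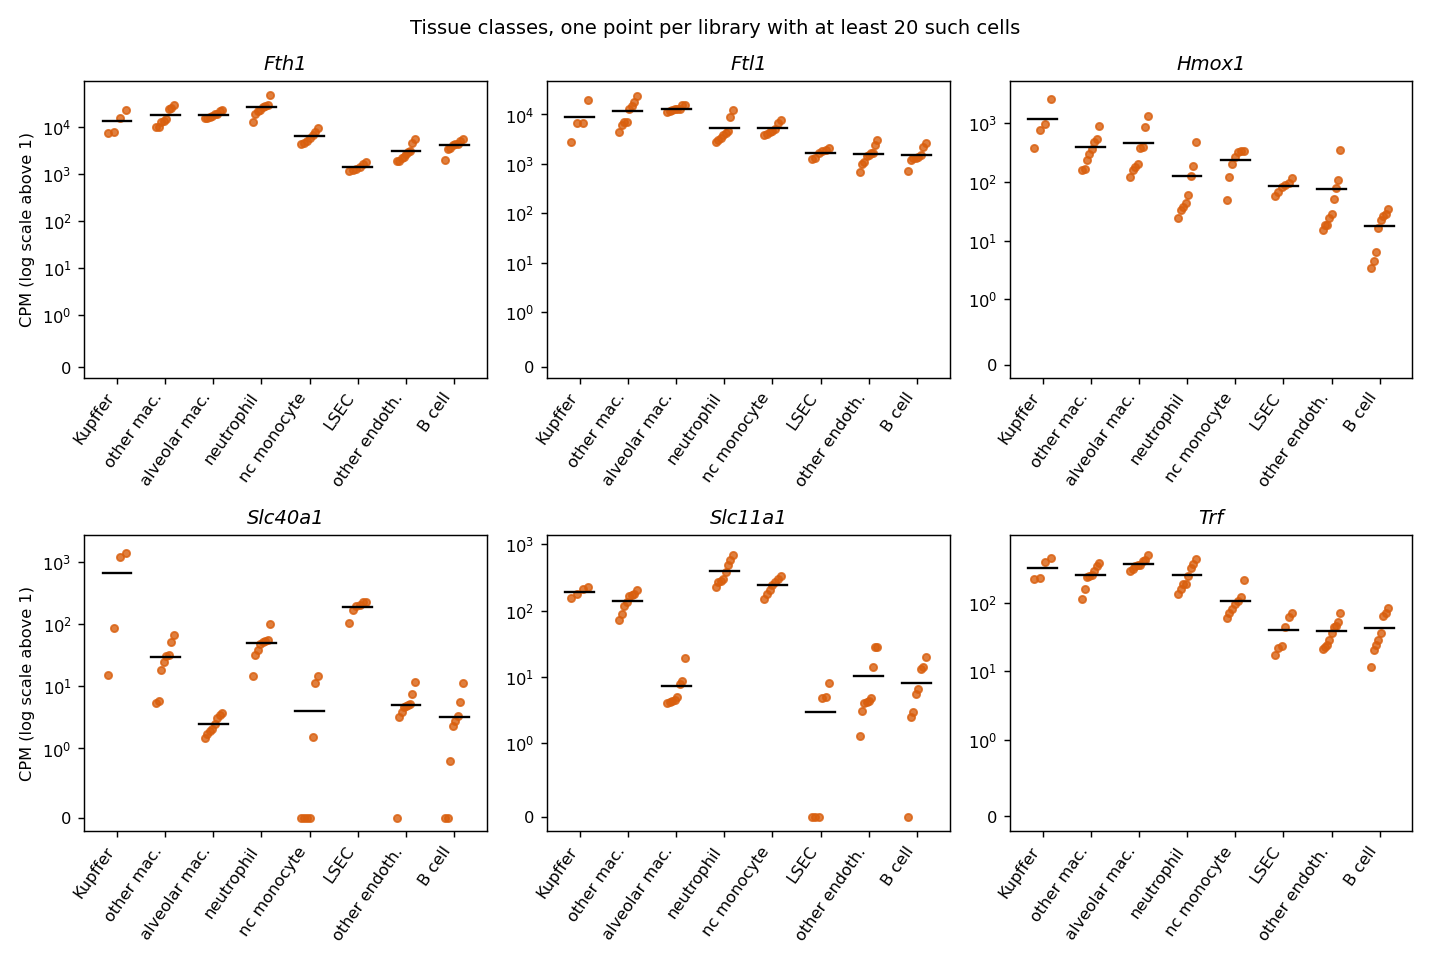
CPM (vertical axis, linear below 1 and logarithmic above) of 6 genes in 8 tissue classes, each point a library with at least 20 cells of the class and each line the mean (mac., macrophage; nc, nonclassical; LSEC, liver sinusoidal endothelial; endoth., endothelial). Slc40a1 spread from 15.3 to 1375 CPM over the 4 libraries of Kupffer-like cells, and Slc11a1 was 4.06 to 19.5 CPM in alveolar macrophage-like cells against 72.7 to 207 CPM in other macrophage-like cells.

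Kupffer cells are the resident macrophages of the liver sinusoids, which recycle iron from red cells. The gate held 196 tissue cells, and 4 libraries had at least 20. They had the highest class means of Hmox1 (1188 CPM, range 382 to 2626), Cd163 (113 CPM) and Slc40a1 (671 CPM). Tissue wt replicates 1, 2, 3 and 5 had 972, 773, 382 and 2626 CPM of Hmox1. The gate marker Clec4f had no UMI in the 26 gated cells of wt replicate 2. In wt replicate 5 it had none in 41 of 42 gated cells. Over all barcodes of that library, 6 peritoneal macrophage markers summed to 1024 CPM. The other tissue libraries with a group had 14.4 to 47.3 CPM of these markers. Their part in the Hmox1 value was not tested. In the 3 libraries that also had 20 other macrophage-like cells, 1 of 8 tested members passed, Cd163, where 0.499% of 4012 genes passed. Cd163 had 33.5, 119 and 293 CPM in Kupffer-like cells and 0, 5.04 and 5.40 CPM in other macrophage-like cells (log2 4.47 ± 0.58, SE, edgeR adjusted p = 0.0163), a call lost without tissue wt replicate 3 (4.02, edgeR adjusted p = 0.153). The Kupffer-like values were 4, 31 and 23 UMIs in tissue wt replicates 1, 2 and 3. Gated cells without a Clec4f UMI held 4, 31 and 1 of these. Hmox1 (1.3 ± 0.41, SE, edgeR adjusted p = 0.358) and Tfrc (1.56 ± 0.36, SE, edgeR adjusted p = 0.172) were higher in 3 of 3 libraries without passing, as was Slc11a1 (0.62). Fth1 was lower in 3 of 3 without passing (-0.60), and passed without tissue wt replicate 2 (-0.72). Hmox1 was at 0.65 without tissue wt replicate 1, and passed without the filter on low counts (1.03), as Tfrc did with the gate of 2 markers.

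Slc40a1 in the Kupffer gate split by library, with 1207, 15.3, 1375 and 85.9 CPM in tissue wt replicates 1, 2, 3 and 5. Clec4f, a receptor made by liver Kupffer cells and a marker of the gate, had 1878, 0, 2126 and 61.8 CPM in the same libraries, so the high and the low libraries were the same for both. The gate of wt replicate 2 therefore held no cell with Clec4f, and in wt replicate 5 few. Split after these values were seen, 77 tissue cells with a Clec4f UMI had 1676 CPM of Slc40a1 (1493 to 1876) and the 119 without had 76.0 CPM (58.9 to 96.5). These sets differed in their libraries, as 26 and 41 of the cells without Clec4f came from wt replicates 2 and 5. Within wt replicate 1, cells with Clec4f had 113 Slc40a1 UMIs of 71094 and cells without had 31 of 48189, and within wt replicate 3 the counts were 107 of 53959 and 1 of 24608. Cells with Clec4f had the higher Slc40a1 level in 7 of the 7 tissue libraries with a group that held both sets. Some sets were very small: 1 cell with Clec4f in wt replicate 5 and 2 in null replicate 2. Het replicate 1 and null replicate 3 each had 4 cells without it. Of the 2 tissue libraries without a group, unassigned replicate 1 had the same order (10 UMIs of 5143 with Clec4f, 1 of 2073 without) and unassigned replicate 3 the opposite (70 of 39565 and 59 of 20314). Fth1 was at 6176 CPM in the 77 cells with Clec4f and 18107 CPM in the 119 without, and lower with Clec4f in the same 7 of 7 libraries. No order is given for Hmox1 and Cd163, since 954 of the 1297 Hmox1 UMIs without Clec4f came from wt replicate 5 and 22 of the 27 Cd163 UMIs with it from wt replicate 3. None of the 27 ntCZC cells in the Kupffer gate had a Clec4f or a Slc40a1 UMI (3 counts would have been 10.6 CPM). The filter on low counts kept Slc40a1 out of the test between Kupffer-like and other macrophage-like cells. Without the filter its log2 difference was 4.77, with 1207, 15.3 and 1375 CPM against 5.40 to 31.5 CPM. The SE of 0.39 and edgeR adjusted p of 1.87e-30 in that fit do not reflect this spread between libraries. That setting called 276 genes, and the main fit 20. In fits with the filter that Slc40a1 did enter, it passed with the gate of 2 markers (4.30 ± 0.67, SE, edgeR adjusted p = 0.00113) and without doublet removal (4.44 ± 0.63, SE, edgeR adjusted p = 0.00106). It also passed without wt replicate 2 (6.47, edgeR adjusted p = 2.43e-05) and did not pass without wt replicate 3 (4.80 ± 1.55, SE, edgeR adjusted p = 0.940). After thinning, 28.7% of 171 Kupffer-like cells had a Slc40a1 UMI (25 shallower cells left out; 46.9% unthinned), against 0.352% of B cell-like cells (0.628% unthinned), at median depths of 3538 and 1549 UMIs.

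Liver sinusoidal endothelial-like cells line the same vessels. In the 6 libraries with both gates, 4 of 6 tested members passed against other endothelial-like cells, 2 higher and 2 lower, where 29.0% of 8357 genes passed, 13.9% higher and 15.1% lower. Slc40a1 had 105, 202 and 226 CPM in the lowest, median and highest library against 3.26, 4.82 and 11.8 CPM, higher in 6 of 6 with no overlap (log2 4.93 ± 0.22, SE, edgeR adjusted p = 4.38e-10). The difference was 4.99 without tissue null replicate 3. Thinned, 18% of these cells had a Slc40a1 UMI (29.9% unthinned, median depth 1694 UMIs). Hmox1 had 57.1, 85.3 and 117 CPM against 15.2, 23.8 and 109 CPM (1.23 ± 0.30, SE, edgeR adjusted p = 0.00651), and 1.66 without tissue wt replicate 3, but at no more than 10% mitochondrial UMIs it did not pass (0.91, edgeR adjusted p = 0.0920). Fth1 was lower in 6 of 6, with 1157, 1330 and 1839 CPM against 1872, 2470 and 5737 CPM (-0.99 ± 0.18, SE, edgeR adjusted p = 7.16e-04), but without doublet removal it did not pass (-0.37, edgeR adjusted p = 0.383). Lcn2 was lower in 5 of 6 (-1.40 ± 0.39, SE, edgeR adjusted p = 0.0140), which did not hold without tissue wt replicate 3 (-0.81, edgeR adjusted p = 0.151), without doublet removal (-0.63), at no more than 10% mitochondrial UMIs (-0.66) or by DESeq2 (-1.15). Without tissue null replicate 3 the differences were 1.17 (Hmox1), -1.04 (Fth1) and -1.56 (Lcn2).

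Slc40a1 was next highest in neutrophil-like (49.2 CPM, 14.4 to 102) and proximal tubule-like cells (35.2 CPM, 22.6 to 49.4). In neutrophil-like cells the thinned share with a UMI was 4.53% in tissue, 25% in ntCZC and 30.0% in PBMC (10 cells deep enough). Unthinned shares were 7.65% of 2105, 37.2% of 113 and 44.4% of 36 cells, with exact 95% intervals of 6.55 to 8.87%, 28.3 to 46.8% and 27.9 to 61.9%. The blood values came mainly from 1 ntCZC library and 1 PBMC library, so this difference had no test.

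Tfrc was highest in alveolar type 2-like cells, which make surfactant, at 161 CPM (102 to 268, n = 3), and then in gastric mucous-like cells (63.2 CPM, 14.8 to 118). Slc11a1 was at 404 CPM in neutrophil-like cells (228 to 701), 242 CPM in nonclassical monocyte-like, 193 CPM in Kupffer-like, 142 CPM in other macrophage-like and 107 CPM in classical monocyte-like cells (58.4 to 135). All the classes below these had means of at most 16.2 CPM, and the next in order, alveolar type 1-like, had 0 to 36.4 CPM. Thinned, 33.5% of neutrophil-like cells had a Slc11a1 UMI. Among nonclassical monocyte-like cells this share was 23.2% for ntCZC and 21.7% for tissue after thinning, and 59.4% and 44.0% before it.

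Lcn2 stood at 8343, 4084, 6475, 8329 and 8918 CPM in the 5 libraries with epididymal epithelial-like cells, a mean of 7230 CPM, above the range of every other class. The last value was that of tissue null replicate 3, which was labelled female, and the other 4 libraries had 4084 to 8343 CPM. Squamous epithelial-like cells had 2555, 844 and 3789 CPM, of which 844 CPM was tissue null replicate 3. Neutrophil-like (823 CPM), alveolar type 2-like (568 CPM) and ciliated-like cells (312 CPM) followed. Thinned, 86.7% of epididymal epithelial-like cells had an Lcn2 UMI and 1.28% of B cell-like cells.

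Club-like and alveolar type 2-like cells, secretory cells of the airway and the alveolus, could be compared in 3 libraries. Of 5 tested members 3 passed, 1 higher and 2 lower in club-like cells, where 23.7% of 1258 genes passed, 7.87% higher and 15.8% lower. Lcn2 had 17.5, 29.4 and 136 CPM in club-like and 375, 537 and 793 CPM in alveolar type 2-like cells (log2 -2.63 ± 0.50, SE, edgeR adjusted p = 1.51e-04), a call lost without tissue het replicate 1 (-2.02, edgeR adjusted p = 0.0535) and with the gate of 2 markers (-1.13, edgeR adjusted p = 0.143), while the difference without null replicate 2 was -3.26. Tfrc had 0, 9.81 and 29.2 CPM against 102, 113 and 268 CPM (-1.81 ± 0.61, SE, edgeR adjusted p = 0.0284), lost without tissue het replicate 1 (-1.57, edgeR adjusted p = 0.305) or null replicate 2 (-1.18, edgeR adjusted p = 0.191), and also by DESeq2, without the filter on low counts and without doublet removal. Trf had 136, 181 and 181 CPM against 115, 119 and 135 CPM, and its fitted difference of 1.59 ± 0.36 (SE, edgeR adjusted p = 0.00125) was larger than these CPM show. This call was lost by DESeq2 (1.63, adjusted p = 0.0838) and with the gate of 2 markers (0.73, edgeR adjusted p = 0.227).

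Hepatocytes secrete most plasma transferrin and haemopexin, and their gate held too few cells for a test. The 55 hepatocyte-like cells of 7 tissue libraries had together 1923 CPM of Trf (1741 to 2119) and 905 CPM of Hpx (782 to 1043). Albumin in the gate ran from 1346 to 32706 CPM between libraries. The 10 cells of tissue wt replicate 3, with 32706 CPM of albumin, had 3622 CPM of Trf and 2267 CPM of Hpx. The 18 cells of tissue het replicate 1, with 6874 CPM of albumin, had 583 and 105 CPM. In the classes with enough cells, Hpx was at most 17.9 CPM (liver sinusoidal endothelial-like, 2.38 to 63.6), overlapping the 12.3 CPM (1.41 to 27.5) of B cell-like cells. Thinned, 19.1% of hepatocyte-like and 0.607% of B cell-like cells had an Hpx UMI.

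Genotypes were compared over all ntCZC barcodes and in tissue macrophage-like cells. Of the 2 ntCZC wt libraries, replicate 3 held only 10 passing cells and 161541 UMIs, 73.5% of them haemoglobin. Both were from males, the ntCZC het libraries were male except replicate 3, and the ntCZC null libraries were female except replicate 2. Sex and genotype could thus be told apart only in part, also with sex as covariate. In ntCZC null against het, 0 of 7 tested members and 0% of 9379 genes passed by edgeR, with 686 genes at an unadjusted p under 0.05 and 16 called by DESeq2. In null against wt likewise 0 of 7 members and 0% of genes passed, with 360 genes at an unadjusted p under 0.05 and 13 called by DESeq2. The members nearest to the threshold in null against het were Tfrc (-1.72 ± 0.57, SE, edgeR adjusted p = 0.523) and Hmox1 (0.78 ± 0.33, SE, edgeR adjusted p = 0.637). Tfrc was at 4.28, 4.22, 0 and 6.13 CPM in null and 16.8, 10.8, 5.38 and 23.4 CPM in het libraries. In het against wt, 741 genes had an unadjusted p under 0.05 and 101 were called by DESeq2. By edgeR 0.107% of genes passed, 0.0107% higher and 0.0960% lower, and 1 of 7 members, Lcn2. Its wt values were 145 and 6.19 CPM and its het values 1.05, 2.69, 0 and 0.570 CPM, a log2 difference of -7.82 ± 1.12 (SE, edgeR adjusted p = 0.0377). The 145 CPM belonged to ntCZC wt replicate 1, which held 103 of the 113 neutrophil-like ntCZC cells at 1540 CPM of Lcn2, and without it the adjusted p of edgeR was 0.622 (-5.29). The call was also lost without ntCZC het replicate 1, 2 or 3 or null replicate 2 (-7.22 to -8.46) and without the sex covariate (-7.11). With the replicate number as a block it was lost too (-6.80).

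Tissue macrophage-like cells, Kupffer-like and other together, had 0 of 9 tested members called in null against wt and 0 of 9 in het against wt. Over all 7024 genes 0% passed by edgeR in both, with 223 and 173 genes at an unadjusted p under 0.05 and 6 and 2 called by DESeq2. Log2 differences of the members ran from -0.12 to 1.48 in null and from -0.99 to 0.68 in het. Slc40a1, for example, was at 99.5 ± 107 CPM in wt (SD, n = 5), 59.8 ± 26.8 CPM in het (SD, n = 2) and 75.6 ± 22.7 CPM in null (SD, n = 2), and Ftl1 at 8805 ± 8477, 15555 ± 3722 and 11080 ± 5393 CPM.

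A list of 44 other iron genes was read in the same fits, tissue null replicate 3 included. Over all barcodes, ntCZC against tissue, 8 of 34 tested passed higher and 12 lower, where 28.5% of all genes passed higher and 36.0% lower. Bmp6, which induces hepcidin, was lower (log2 -7.43), as was the metal importer Slc39a8 (-4.26), and the red cell haem synthesis enzyme Alas2 was higher (4.21). In nonclassical monocyte-like cells 5 of 14 passed higher and 3 lower (13.2% and 18.6% of all genes), with Hfe, a partner of the transferrin receptor, at 1.20, haptoglobin (Hp) at 1.14 and the iron chaperone Pcbp2 at -1.12. In liver sinusoidal endothelial-like against other endothelial-like cells 8 of 28 passed higher and 7 lower (13.9% and 15.1% of all genes), with Bmp2, the other inducer of hepcidin, at 7.01, Slc39a8 at 5.07 and the mitochondrial iron importer Slc25a37 at 1.52. Alveolar macrophage-like against other macrophage-like cells had 9 of 28 higher and 7 lower (19.3% and 21.9% of all genes), with the ferroxidase Cp at -2.72, Id1 at 2.69 and Ncoa4, which delivers ferritin for breakdown, at 2.60. Against nonclassical monocyte-like cells, other macrophage-like cells had 7 of 20 higher and 7 lower, where 21.9% and 17.8% of all genes did so (Hp -3.25, Blvrb 1.95, Slc48a1 1.94). Neutrophil-like cells had 7 of 14 higher and 4 lower, where 32.0% and 29.9% of all genes did so (Hfe -4.01, Hp 2.84, Lrp1 -2.38). Club-like against alveolar type 2-like cells had 3 of 8 higher and 1 lower, where 7.87% and 15.8% of all genes did so (Cp 4.88, Hp 2.52, Alas1 2.26). None of 17 passed between Kupffer-like and other macrophage-like cells, and none of 32 in ntCZC or 28 in tissue macrophage-like cells passed between genotypes by edgeR.

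Genes with the most similar pattern were read from 8772 genes over the 23 cell classes, red cells left out, as Pearson correlations of log2(mean CPM + 1). The classes share libraries and depth, so these are descriptions. Fth1 was closest to Ftl1-ps1 (r = 0.86), Ftl1 (0.84) and Cxcl2 (0.82), and Ftl1 to Ftl1-ps1 (0.96), Plin2 (0.85) and Tbxas1 (0.84). Hmox1 was closest to Tgfbi (0.88), Acp2 (0.87) and Hexa (0.85), and Cd163 to Gbp2b (0.97), Cd209g (0.96) and Cd209f (0.95). Slc40a1 was closest to Itsn1 (0.74), Vcam1 (0.74) and Ctsl (0.73), Tfrc to Ahcyl2 (0.77), Grpel2 (0.72) and Gclc (0.71), and Slc11a1 to Lst1 (0.92), Csf3r (0.91), itself a gate marker, and B430306N03Rik (0.91). Trf was closest to Cd33 (0.76), Ftl1-ps1 (0.74) and Tgfbi (0.70), Hpx to Rsad2 (0.71), Scpep1 (0.67) and Plekho1 (0.66), and Lcn2 to Gm16136 (0.79), Elf3 (0.76) and Tmem150c (0.75).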

How the data were processed

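Per the labels, the authors processed reads with Cell Ranger (2.1.1 in the processing notes, 3.0.2 in the matrix headers) against mouse mm10 and deposited, for each library, filtered matrices of raw UMI counts, which are whole numbers and had not been normalized. The aligner settings for strand and for reads shared between copies were not given in the sources used here. Genes and lists were chosen with earlier results of these data known. All barcodes entered library sums. Classes used barcodes that had 200 or more genes and no more than 25% of UMIs from mitochondrial genes, and in tissue doublets were removed by Scrublet score (scanpy 1.11.5) at 0.8% per 1000 barcodes, up to 25%. A cell joined a class with a UMI in at least 3 of its 6 markers and no other class within 1 marker, and a subclass with at least 2 of its markers. A red cell barcode had at least 20% haemoglobin UMIs. The red cell gate needed no gene minimum. Doublets were not called in ntCZC or PBMC libraries.

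Counts summed per library, or per library and class with at least 20 cells, were tested with edgeR 4.0.16 (quasi-likelihood, TMM, filterByExpr, R 4.3.3), with sex as covariate between libraries or the library as block between classes, and Benjamini-Hochberg adjustment over all genes tested at 0.05. Genotype was not a term in the main fits of ntCZC against tissue. Fits were tested on simulated data. DESeq2 1.42.0, RLE scaling, no filter, other gates, no doublet removal, mitochondrial limits, a replicate block and leaving out each library were alternatives. CPM are UMIs per 1000000 UMIs of the sum. Intervals are exact 95% Poisson or Clopper-Pearson intervals. For a count of 0, the CPM of 3 counts was given as a floor, which is not the limit of these intervals. Over 25 replicate pairs the chi-square per degree of freedom was at least 4.11, above the counting noise at which a library deposited again would lie. Captures of different cells of 1 mouse would not agree either. Named were the 10 members, the 3 called other iron genes with the largest change in each comparison, and the 3 genes most correlated with each member among those with at least 50 CPM in a class. Clec4f was added after its values were seen. Hepatocyte-like and proximal tubule-like cells could not be compared, as no library held 20 of both. Without the hashtag counts, not used here, organs of origin were unknown. Sequences came from the GENCODE vM21 transcripts of GRCm38.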

Additional observations from a re-analysis of the deposited data

Results flagged for a closer look

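In groups of 4 or 5 libraries, 4 of 30 sets of values had a library far from the others by Dixon's 95% limit. Chance alone marks about 1 in 20 where values are not tied at 0. Cd163 stood at 38.9 CPM in ntCZC het replicate 1 and at 0 to 2.28 CPM in the other 3 het libraries. Hpx stood at 1.71 CPM (3 UMIs) in ntCZC het replicate 3, where the other het libraries had none, so that any UMI would have been marked. It stood at 37.2 CPM in tissue wt replicate 3, where the other wt tissue libraries had 1.42 to 6.65 CPM. Lcn2 stood at 13.6 CPM in ntCZC null replicate 1 and at 0 to 1.88 CPM in the other null libraries.

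The pair of tissue libraries without a group, which entered no comparison, held some carrier levels above those of the 9 others. Hpx in unassigned replicate 1 (5.14 CPM) lay inside the range of the others. So did Lcn2 in both libraries (57.3 and 271 CPM, against 20.5 to 901 CPM). Trf was at 356 CPM in unassigned replicate 3 and 162 CPM in unassigned replicate 1, against 60.5 to 128 CPM. Hpx was at 160 CPM in unassigned replicate 3, against 1.42 to 37.2 CPM. Beside these values, 27 hepatocyte-like cells of unassigned replicate 3 had 59011 CPM of albumin, 10271 CPM of Trf and 5559 CPM of Hpx, and the part of liver cells in the library totals was not tested.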

How the results depend on the processing

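Of 31 called member values, 16 kept their direction and their call in every alternative that gave a value and 0 changed sign. Over all member values, 368 of 414 settings and 427 of 467 fits without 1 library left the call and direction as they were. Depth limited Cd163, Hpx and, in several comparisons, Slc40a1, which the filter on low counts kept out of tests. The planned comparison of hepatocyte-like with proximal tubule-like cells was not run, as no library held 20 of both. Where a value below moved, the cause was not tested, except that fewer libraries, other gates or more genes enter by construction.

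The members called numbered 0 by DESeq2, without the sex covariate and with the replicate block in ntCZC het against wt, and 2 without the filter. DESeq2 gave Lcn2 no adjusted p there. Without the filter on low counts they numbered 4 in Kupffer-like, 6 in alveolar macrophage-like, 8 in other macrophage-like and 8 in neutrophil-like cells. A gate of at least 2 markers gave 2 in Kupffer-like and 1 in club-like cells, and one of 4 markers gave 0 in Kupffer-like cells. Without doublet removal they numbered 4 in alveolar macrophage-like and 2 in liver sinusoidal endothelial-like cells, in the latter also 2 at most 10% mitochondrial UMIs, and DESeq2 gave 1 in club-like cells.

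Genes called without the filter numbered 10698 (ntCZC against tissue), 2949 (nonclassical monocyte-like), 60 (null against het), 92 (het against wt), 4 (null against wt), 55 and 107 (tissue macrophage-like, null and het), 276 (Kupffer-like) and 2625 (neutrophil-like). DESeq2 called 16, 101 and 13 in these ntCZC genotype comparisons, 6 and 2 in tissue macrophage-like cells, 51 in Kupffer-like and 143 in club-like cells. In ntCZC het against wt, RLE scaling gave 5 and no sex covariate 3. At most 10% mitochondrial UMIs gave 711 in nonclassical monocyte-like, 1 in macrophage-like het against wt, 2238 in alveolar macrophage-like, 1274 in other macrophage-like and 778 in liver sinusoidal endothelial-like cells. Kupffer-like cells had 165 at 2 markers and 41 without doublet removal.

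Correlations of the deviations of same-numbered libraries ran from -0.22 to 0.24 over 8 pairs of ntCZC genotypes (1 over 0.1), -0.48 to 0.01 over 5 tissue pairs and -0.05 to 0.03 over 6 ntCZC and tissue pairs. Sums of different cells of the same mouse need not deviate together, so this cannot tell whether mice were shared. The ntCZC and tissue libraries had the same age and sex for wt replicate 1 (571 days), het replicate 2 (551 days), null replicate 2 (552 days) and wt replicate 3 (608 days), all male. Ages differed for het replicate 1 (610 and 551 days) and null replicate 3 (612 and 611 days). The replicate block called 1 member and 369 genes in nonclassical monocyte-like cells, 0 genes in ntCZC het against wt, and 10 (null) and 14 (het) genes in tissue macrophage-like cells. In ntCZC against tissue the block lost the call of Trf (0.79, edgeR adjusted p = 0.0602), and Hmox1 was 0.26. It also lost, within nonclassical monocyte-like cells, Hmox1 (-1.11), Trf (-0.89) and Slc11a1 (-0.69), and in ntCZC het against wt Lcn2 (-6.80).

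Values that changed sign were all of members without a call. Ftl1 was -0.17 in ntCZC against tissue when barcodes needed 200 genes and no more than 20% mitochondrial UMIs, 0.05 in nonclassical monocyte-like cells without the filter and -0.15 to 0.03 there when a library was left out, positive without tissue wt replicate 2. In Kupffer-like cells Ftl1 was 0.02 without doublet removal and Lcn2 -1.21 to 1.16 when a library was left out, negative without tissue wt replicate 2. In alveolar macrophage-like cells Fth1 was 0.13 without the filter, 0.03 at 2 markers, and -0.21 to 0.10 when a library was left out, positive without tissue wt replicate 2 (0.07), het replicate 2 (0.10) or null replicate 2 (0.09). There Ftl1 was -0.02 without doublet removal and -0.26 at most 10% mitochondrial UMIs, and Hmox1 0.09 at that limit and -0.69 to 0.07 when a library was left out, positive without null replicate 2. Trf was 0.04 in liver sinusoidal endothelial-like cells without doublet removal.

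Leaving out each library gave 6 to 7 members and 6475 to 8114 genes (ntCZC against tissue), 3 to 4 and 872 to 1191 (nonclassical monocyte-like), 0 and 0 to 25 (null against het), 0 to 1 and 2 to 96 (het against wt), and 0 and 0 to 64 (null against wt). Without ntCZC wt replicate 1 the counts were 96 (het against wt) and 64 (null against wt), and without ntCZC het replicate 4 they were 48 (het against wt) and 25 (null against het). Het against wt had 3, 2 and 5 genes without ntCZC het replicates 1, 2 and 3, and 5 without ntCZC null replicate 2. The same gave 0 to 2 and 8 to 291 (Kupffer-like, 8 without tissue wt replicate 1, 2 members and 291 genes without wt replicate 2, and 0 members without wt replicate 3), 2 to 4 and 3016 to 3519 (alveolar macrophage-like, 4 members without tissue het replicate 2), 4 to 5 and 1506 to 1918 (other macrophage-like), 4 to 5 and 1115 to 1919 (neutrophil-like, 1115 without tissue wt replicate 1), 3 to 4 and 1892 to 2607 (liver sinusoidal endothelial-like), 1 to 2 and 140 to 277 (club-like, 1 member and 140 genes without tissue het replicate 1, and 178 genes without wt replicate 2), and 0 members and 0 genes in tissue macrophage-like genotypes. Thinning to 1000 UMIs gave shares of 44.4% (Hmox1), 9.36% (Cd163) and 28.7% (Slc40a1) in Kupffer-like, 14.4% (Tfrc) in alveolar type 2-like, 33.5% (Slc11a1) in neutrophil-like, 30.5% (Trf) in alveolar macrophage-like, 86.7% (Lcn2) in epididymal epithelial-like and 1.60% (Hpx) in liver sinusoidal endothelial-like cells. With 2 markers Lcn2 was at 5077 CPM in epididymal epithelial-like cells.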
